A study of Mus musculus with 12 samples.

Results

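Immediate early genes and related genes that respond to cell stress were followed in 4 fibroblast populations sorted from mouse dermis at postnatal day 2. The list held 35 genes, chosen by name: AP-1 subunits and other early transcription factors, factors that shorten the life of mRNA, and feedback inhibitors of the kinase pathways that switch these genes on. Of these, 34 were measured among 22180 genes with a probe set of their own, and the remaining gene, Fosl1, shared its probe set with Ccdc85b and was not analysed here. Where Jund and Socs3 had a pair of probe sets, the one with the higher mean was used.

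Immediate early genes are transcribed within minutes of a stimulus, from factors that already sit in the cell, and need no new protein synthesis. Growth factors, cytokines, mechanical load and enzymatic digestion of tissue all induce them, through ERK and p38 kinases acting on SRF, its partner Elk1 and CREB, and their mRNAs are short-lived. Several of the products then damp the same pathways. In dissociated skin the same genes are widely used as a sign of handling before the cells are lysed.

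Labelled cDNA from total RNA was hybridised to Mouse Gene 2.0 ST arrays (Affymetrix). There were 3 for each of the CD26+, Dlk1+Sca1-, Dlk1+Sca1+ and Dlk1-Sca1+ populations, 12 in all. The labels give the mice as wild-type and each array as a biological replicate, while the study describes a reporter line in which green fluorescence marks cells expressing Pdgfra, states that the sorted cells were positive for it, and calls the populations papillary (CD26+, which it gated as Sca1-), reticular (Dlk1+Sca1-) and pre-adipocyte (both Sca1+ populations). All 4 populations went through the same steps, 1 h in dispase and trypsin and 1 h in collagenase, both at 37 °C, and then flow sorting. No skin that had not been digested was measured, so the values are levels after digestion and sorting, and how far digestion moved them is not known. The order and duration of the sorts are not given in the sources used here.

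The arrays were on a similar scale, with array medians between 5.38 and 5.51 log2 units over all probe sets. One Dlk1-Sca1+ array, replicate 3, stood apart from its label, with Dlk1 at 8.69 against 8.09 and 8.32 in the others and a profile nearer to Dlk1+Sca1+ (mean correlation over genes 0.06 with Dlk1+Sca1+ and -0.07 with its own group), and was left out of the tests as the study left out a Dlk1-Sca1+ sample of this description. Dlk1 separated the gates on the other arrays and lay at 9.78 or more in every Dlk1+ array and at 8.69 or less in every other, and Dpp4, which encodes CD26, at 10.00 or more in the CD26+ arrays, although Dlk1-Sca1+ replicates 1 and 2 reached 9.97 and 10.13, so that Dpp4 did not separate these populations. The Sca1 gate was not checked here. The summed linear level of 9 fibroblast markers was 29412 to 31606 in Dlk1+Sca1- and 33522 to 36275 in the other populations. Within it Col1a2 was even, with population means between 12.68 and 12.80, while Thy1 was lower in Dlk1+Sca1-, at 10.81 against 11.37 to 11.79. Pdgfra, the gene of the reporter, was also lowest in Dlk1+Sca1-, at 8.70 against 9.03 to 9.45. Ptprc, the pan-leukocyte antigen, had population means between 3.14 and 3.35. Other leukocyte markers, some of which differed between populations, are given below.

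For the 6 members that differed between populations in at least 1 test, the region from 250 bases before to 50 bases after an annotated transcription start is shown, so that the elements through which such genes are known to be induced can be read. Sequences are those of RefSeq on GRCm38.p6, written along the strand of the gene, and capitals mark matches to the core of the cAMP response element, the EGR motif, the CArG box that SRF binds, and the NF-kB motif. The Atf3 window is chr1:191183284-191183583 (minus strand), that of Junb chr8:84978699-84978998 (minus), of Klf2 chr8:72318812-72319111 (plus), of Klf4 chr4:55532426-55532725 (minus), of Nr4a1 chr15:101266596-101266895 (plus, at a start inside the annotated gene) and of Zfp36 chr7:28379179-28379478 (minus).
Atf3: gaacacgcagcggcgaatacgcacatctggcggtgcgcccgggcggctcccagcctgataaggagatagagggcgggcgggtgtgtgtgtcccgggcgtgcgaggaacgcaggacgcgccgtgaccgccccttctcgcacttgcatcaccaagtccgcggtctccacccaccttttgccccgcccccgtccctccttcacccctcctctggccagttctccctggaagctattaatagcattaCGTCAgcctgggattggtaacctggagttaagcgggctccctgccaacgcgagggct
Junb: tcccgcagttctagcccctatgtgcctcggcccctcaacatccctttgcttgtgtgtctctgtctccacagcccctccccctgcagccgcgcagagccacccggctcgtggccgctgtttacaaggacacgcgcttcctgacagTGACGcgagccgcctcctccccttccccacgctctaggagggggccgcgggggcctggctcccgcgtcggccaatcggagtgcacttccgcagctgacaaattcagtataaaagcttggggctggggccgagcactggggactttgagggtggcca
Klf2: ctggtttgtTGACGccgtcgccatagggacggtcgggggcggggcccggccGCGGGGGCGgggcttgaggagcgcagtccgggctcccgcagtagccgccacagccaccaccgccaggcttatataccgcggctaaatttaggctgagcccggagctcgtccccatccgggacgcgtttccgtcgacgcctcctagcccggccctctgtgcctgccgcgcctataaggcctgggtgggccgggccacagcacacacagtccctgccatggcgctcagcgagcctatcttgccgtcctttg
Klf4: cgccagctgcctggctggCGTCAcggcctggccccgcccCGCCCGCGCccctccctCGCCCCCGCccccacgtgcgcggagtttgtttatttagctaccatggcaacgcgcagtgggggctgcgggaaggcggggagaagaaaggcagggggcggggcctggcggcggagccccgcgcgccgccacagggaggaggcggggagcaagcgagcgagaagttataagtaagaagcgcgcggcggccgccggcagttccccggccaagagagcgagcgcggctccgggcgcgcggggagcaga
Nr4a1: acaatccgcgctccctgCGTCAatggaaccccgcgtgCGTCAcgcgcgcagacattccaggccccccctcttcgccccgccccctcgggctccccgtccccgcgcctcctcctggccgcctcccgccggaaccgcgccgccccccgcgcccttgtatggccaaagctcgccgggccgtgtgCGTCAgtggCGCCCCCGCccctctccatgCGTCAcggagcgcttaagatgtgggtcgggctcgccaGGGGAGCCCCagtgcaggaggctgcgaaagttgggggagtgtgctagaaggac
Zfp36: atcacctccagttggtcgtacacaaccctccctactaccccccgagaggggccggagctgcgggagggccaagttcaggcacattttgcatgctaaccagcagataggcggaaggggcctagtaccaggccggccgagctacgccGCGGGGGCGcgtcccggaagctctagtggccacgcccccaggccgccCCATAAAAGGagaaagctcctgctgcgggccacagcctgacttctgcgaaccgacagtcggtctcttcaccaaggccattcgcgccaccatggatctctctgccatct

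In these windows Atf3, Junb, Klf2, Klf4 and Nr4a1 hold the core TGACG, which begins at position -7 in Atf3 and at -106 in Junb, counted from the transcription start along the gene. Zfp36 holds none, and has a CArG box at -58 and an EGR motif at -105. Windows were found for 29 of the 34 measured members, Egr1, Egr3, Ier2, Myc and Trib1 having none in the table used. Where a gene had several listed windows only the first was searched, and bases outside the windows were not searched. Searched on both strands, TGACG was found in 48.3% of the members' windows and in 21.0% of all 27025 windows, the EGR motif GCGNGGGCG in 37.9% and 5.55%, the NF-kB motif in 20.7% and 4.35%, and the CArG box in 3.45% and 1.57%. The full element TGACGTCA, which contains the core, lay in 6.9% of the members' windows, those of Dusp1 and Btg2, and in 1.88% of all. The AP-1 motif TGANTCA was in 0 of the 29 windows and in 7.93% of all. The members' windows were also richer in G and C, with a median of 64.7% against 52.7%, and these shares were not adjusted for that.

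Across the list, the members stood highest in Dlk1+Sca1+ cells. Over the 11 arrays fitted, 31 of the 34 members had their highest population mean there, against 26.3% of all genes. Egr3 and Dusp2 were highest in Dlk1+Sca1- and Sgk1 in CD26+, and no member was highest in Dlk1-Sca1+. The lowest mean fell in CD26+ for 15 members, in Dlk1+Sca1- for 13, in Dlk1-Sca1+ for 5 and in Dlk1+Sca1+ for 1, Egr3. The count of 31 fell to 23 without Dlk1-Sca1+ replicate 1 (24.6% of all genes) and to 24 without Dlk1+Sca1+ replicate 2 (27%). Among arrays of the same replicate number, Dlk1+Sca1+ was the highest for 19 members in replicate 1, 26 in replicate 2 and 25 in replicate 3, where only 3 arrays were compared, beside 26.4%, 30.3% and 30.7% of all genes.

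**Figure D1:**
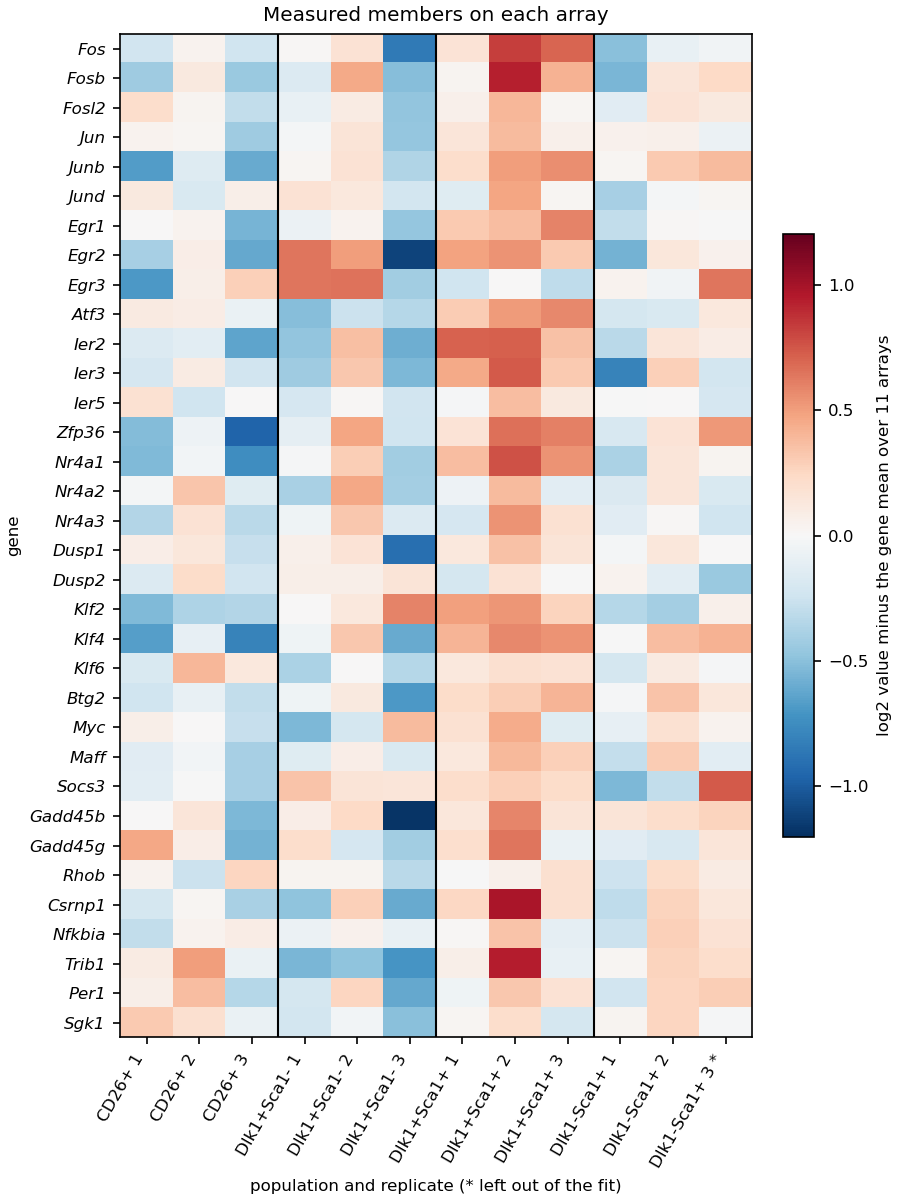
Log2 value of each measured member on each of the 12 arrays, minus the mean of that gene over the 11 arrays fitted. Columns are arrays grouped by population and rows are genes. Red stands for a value above the mean of the gene and blue for one below it. Red prevails in the 3 Dlk1+Sca1+ columns and blue in Dlk1+Sca1- replicate 3 and CD26+ replicate 3.

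Level also moved between replicates of 1 population. The median deviation of the members from their 11-array means was 0.14, 0.46 and 0.19 in Dlk1+Sca1+ replicates 1 to 3, -0.15, 0.04 and -0.31 in CD26+, -0.06, 0.15 and -0.42 in Dlk1+Sca1-, and -0.20 and 0.15 in Dlk1-Sca1+ replicates 1 and 2. All genes together deviated by between -0.02 and 0.02 on every array. The replicate 2 array was the highest of its population for 22 members in CD26+, 27 in Dlk1+Sca1-, 29 in Dlk1+Sca1+ and 30 in Dlk1-Sca1+, beside 33.2%, 30.7%, 38.5% and 51.3% of all genes. Replicate 3 was the lowest for 29 members in Dlk1+Sca1- and 25 in CD26+, beside 32.1% and 35.4% of all genes, whereas in Dlk1+Sca1+ replicate 1 was the lowest for 20 members and replicate 3 for 14. In the median deviation, Dlk1+Sca1- replicate 2 and Dlk1-Sca1+ replicate 2 thus lay above Dlk1+Sca1+ replicate 1. The SD within populations had a median of 0.31 over the members and 0.23 over genes in the same range of levels, so the members varied more between replicates than such genes did.

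**Figure D2:**
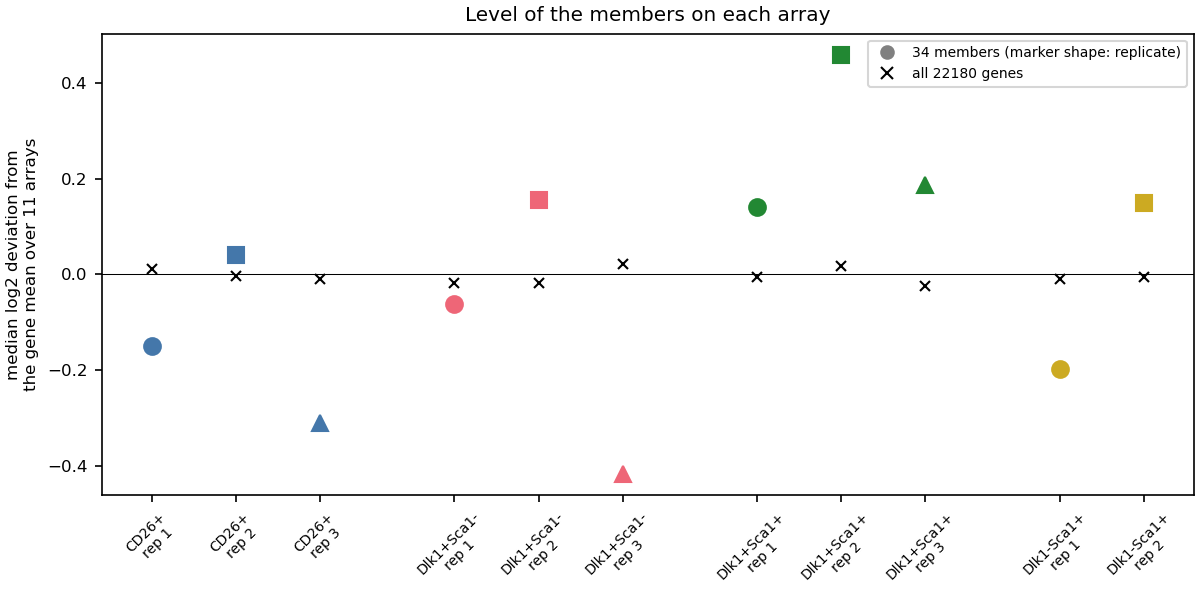
Median over the 34 members of the log2 deviation from the mean of each gene over 11 arrays, for each array (coloured markers), with the same median over all 22180 genes (crosses). The members reach 0.46 in Dlk1+Sca1+ replicate 2 and -0.42 in Dlk1+Sca1- replicate 3, while all genes stay between -0.02 and 0.02.

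The 6 pairs of populations were compared with limma on all genes, with Benjamini-Hochberg adjustment, and an adjusted p under 0.05 counted as a call. Pairs that involve the same population share its arrays and are not independent. Differences are log2 values, first population minus second, with the standard error of the fit. Of the members, 2 were called by the F test for any difference among populations, Atf3 (adjusted p = 0.0043) and Klf2 (adjusted p = 0.020), beside 3.23% of all genes. The pairwise tests called 6 members, all in comparisons with Dlk1+Sca1+.

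CD26+ and Dlk1+Sca1+ differed in the largest number of called members. Klf4, Nr4a1, Zfp36, Junb and Klf2 were lower in CD26+, 5 of 34 members against 1.68% of all genes called lower (3.72% called in either direction), and none was higher. The difference was negative for 32 members and positive for 2, where 49.1% of all genes were positive, with a median of -0.38 against -0.01 over all genes. All CD26+ arrays lay below all Dlk1+Sca1+ arrays for 16 members, an order found in 9.88% of all genes, and for no member did they lie above. Without CD26+ replicate 1 no member was called, without the third CD26+ array or the second or the third Dlk1+Sca1+ array there was 1, and without Dlk1+Sca1- replicate 3 there were 9. The median ranged from -0.48 to -0.24 when each array was left out in turn.

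Against Dlk1+Sca1-, Dlk1+Sca1+ cells had 1 member called, Atf3, higher, beside 1.24% of all genes (0.649% higher). The difference was positive for 32 of 34 members and 50% of all genes, with a median of 0.40 against 0.00, and the arrays did not overlap for 9 members, all higher, an order seen in 7.95% of all genes. Against Dlk1-Sca1+, Atf3 was again the member called, beside 1.19% of all genes (0.537% higher). Here too 32 differences were positive, beside 51.9% of all genes, the median was 0.25 against 0.01, and for 14 members the 3 Dlk1+Sca1+ arrays lay above both Dlk1-Sca1+ arrays, as for 13.4% of all genes.

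The populations other than Dlk1+Sca1+ did not differ in any member past the threshold. Between CD26+ and Dlk1+Sca1- no member was called (1.1% of all genes), 8 passed an unadjusted p of 0.05 (12.6% of all genes) and the median difference was 0.00. Between Dlk1-Sca1+ and Dlk1+Sca1- none was called (0.591% of all genes), 3 passed the unadjusted p (12.4%) and the median was 0.09. Between CD26+ and Dlk1-Sca1+ none was called (0.0857% of all genes), 2 passed the unadjusted p (5.52%) and the median was -0.05. The signs of these last medians changed when single arrays were left out.

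**Figure D3:**
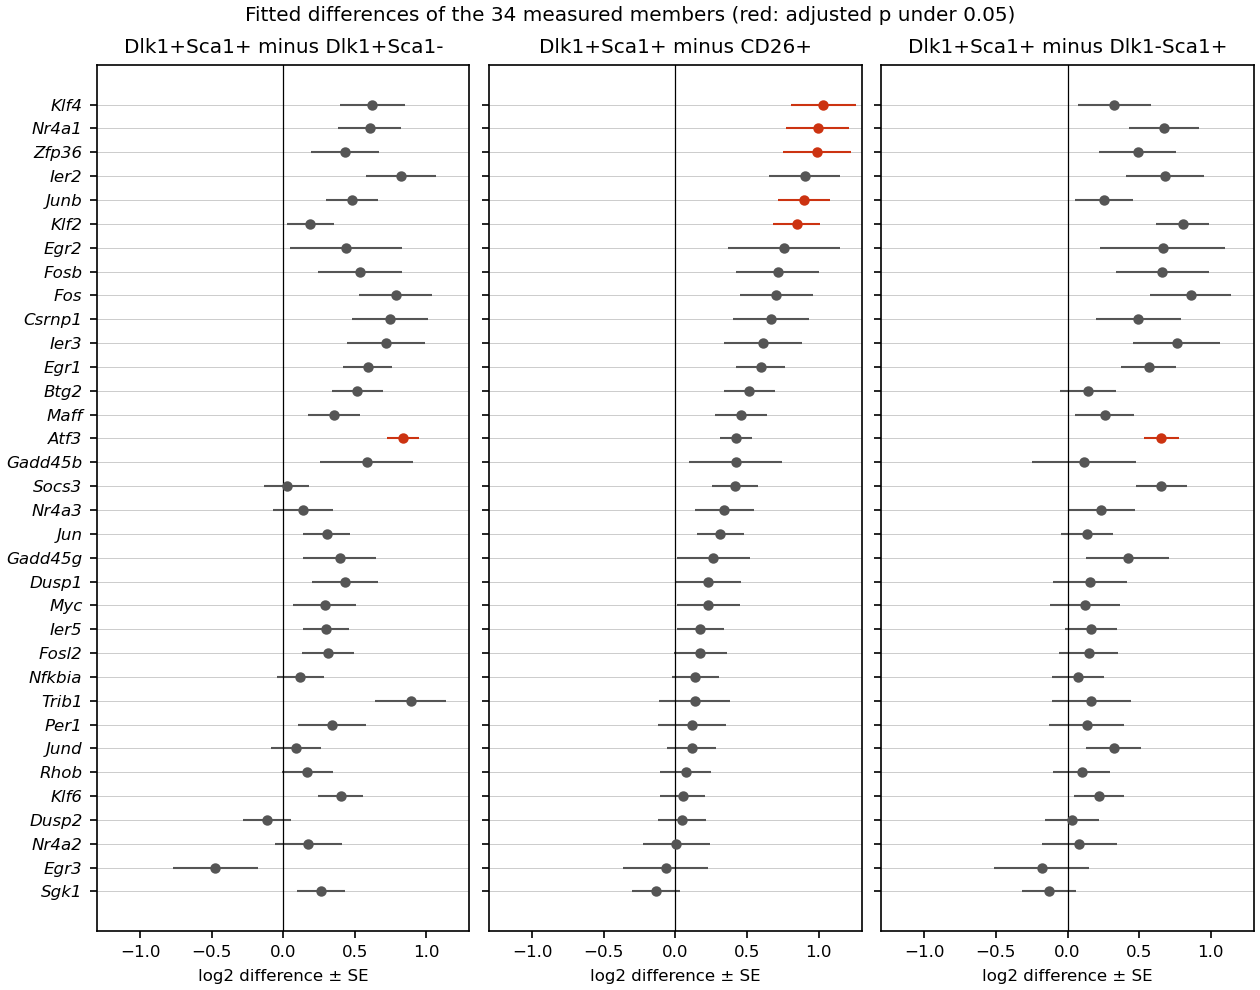
Fitted log2 difference of each measured member, Dlk1+Sca1+ minus Dlk1+Sca1- (left), minus CD26+ (middle) and minus Dlk1-Sca1+ (right), with its standard error. Red marks adjusted p under 0.05. Nearly all points lie to the right of 0, 32 of 34 in each panel. The called genes are Atf3 in the left and right panels, and Klf4, Nr4a1, Zfp36, Junb and Klf2 in the middle panel.

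Among the AP-1 subunits and the bZIP factors related to them, Junb and Atf3 were called. Junb, a Jun protein that restrains the more potent Jun, stood at 8.38, 8.91 and 8.46 in CD26+ replicates 1 to 3, 9.08, 9.23 and 8.69 in Dlk1+Sca1-, 9.27, 9.56 and 9.62 in Dlk1+Sca1+, and 9.08 and 9.37 in Dlk1-Sca1+. Every Dlk1+Sca1+ array lay above every CD26+ and Dlk1+Sca1- array. The difference of CD26+ from Dlk1+Sca1+ was -0.90 ± 0.18 (adjusted p = 0.014), that of Dlk1+Sca1+ from Dlk1+Sca1- 0.48 ± 0.18 (adjusted p = 0.30).

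Atf3, a factor induced by many stresses that mostly represses transcription, had the smallest spread of the members, an SD of 0.12 within populations. It stood at 10.47, 10.46 and 10.29 in CD26+, 9.86, 10.11 and 10.03 in Dlk1+Sca1-, 10.67, 10.88 and 10.94 in Dlk1+Sca1+, and 10.16 and 10.19 in Dlk1-Sca1+. The populations did not overlap, in the order Dlk1+Sca1+, CD26+, Dlk1-Sca1+, Dlk1+Sca1-. Dlk1+Sca1+ exceeded Dlk1+Sca1- by 0.83 ± 0.11 (1.78-fold, adjusted p = 0.0028), a call kept with every array left out in turn (highest adjusted p 0.021), and Dlk1-Sca1+ by 0.66 ± 0.12 (adjusted p = 0.023). The neighbouring step from CD26+ to Dlk1+Sca1+ was -0.42 ± 0.11 (adjusted p = 0.055), and the other steps did not pass. The call against Dlk1-Sca1+ was lost with the array left out of that population kept in (Atf3 10.49 there, adjusted p = 0.081), and without either of its other arrays (adjusted p = 0.16 without replicate 1 and 0.15 without replicate 2).

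Fos, the first AP-1 gene to be induced, stood at 8.18, 8.45 and 8.18 in CD26+, 8.42, 8.59 and 7.56 in Dlk1+Sca1-, 8.58, 9.24 and 9.11 in Dlk1+Sca1+, and 7.91 and 8.32 in Dlk1-Sca1+. Dlk1+Sca1- reached from the lowest value of all to just above the lowest Dlk1+Sca1+ array. Its largest difference, Dlk1+Sca1+ against Dlk1-Sca1+, was 0.86 ± 0.28 (adjusted p = 0.22). Fosb, a close relative, read 9.60, 10.14 and 9.58 in CD26+, 9.86, 10.48 and 9.52 in Dlk1+Sca1-, 10.06, 10.96 and 10.44 in Dlk1+Sca1+, and 9.48 and 10.18 in Dlk1-Sca1+. Replicate 2 was the high array in each of the populations, which overlapped, and CD26+ against Dlk1+Sca1+ gave -0.71 ± 0.29 (adjusted p = 0.27).

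Maff, a small Maf protein without a transactivation domain, read 7.36, 7.46 and 7.09 in CD26+, 7.35, 7.57 and 7.31 in Dlk1+Sca1-, 7.62, 7.88 and 7.78 in Dlk1+Sca1+, and 7.20 and 7.80 in Dlk1-Sca1+. The Dlk1+Sca1+ arrays were above all CD26+ and Dlk1+Sca1- arrays, and the difference from CD26+ was -0.46 ± 0.18 for CD26+ against Dlk1+Sca1+ (adjusted p = 0.25). The remaining AP-1 genes, Jun, Jund and Fosl2, differed by at most 0.32 between any pair of populations and did not pass.

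**Figure D4:**
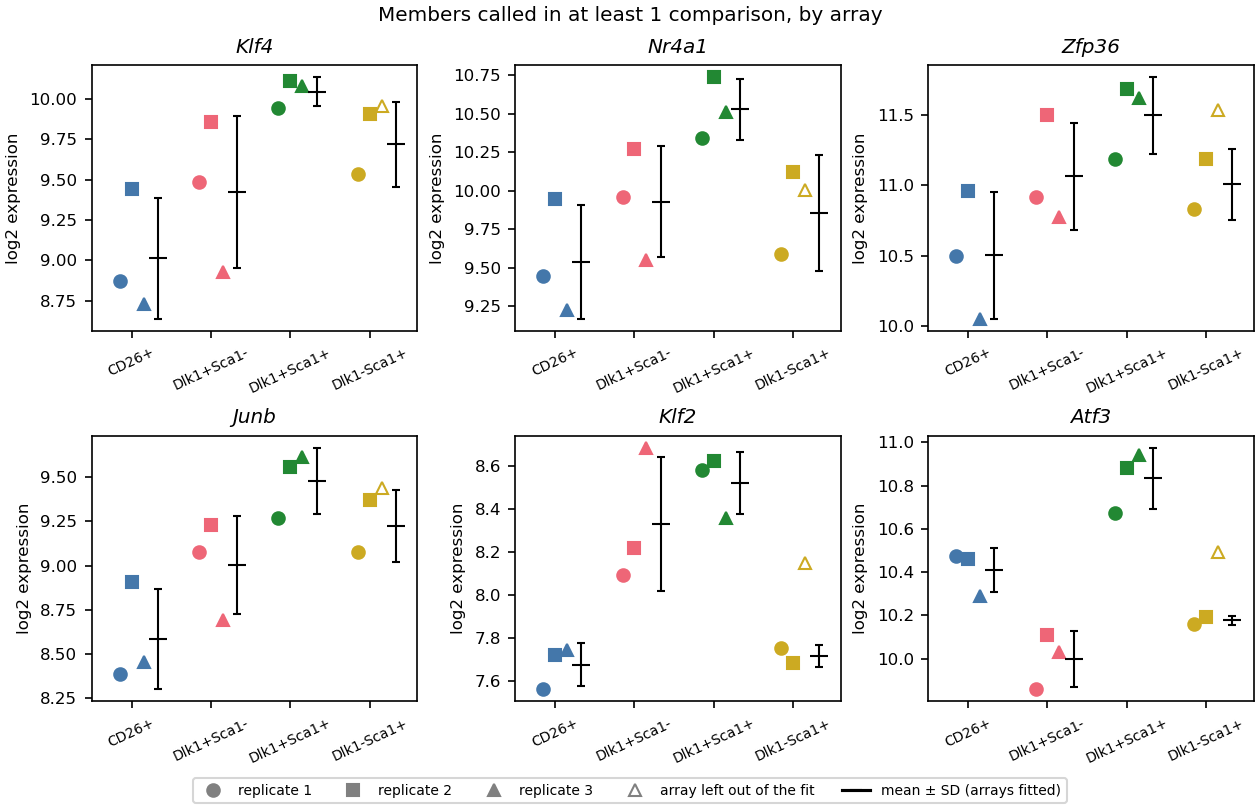
Log2 expression of the 6 members called in at least 1 pairwise comparison, on each array by population (marker shape, replicate number; open triangle, the Dlk1-Sca1+ array left out of the fit), with the mean and SD of the arrays fitted in black. CD26+ arrays lie below the Dlk1+Sca1+ arrays in all 6 panels, and in Atf3 the Dlk1+Sca1- arrays, between 9.86 and 10.11, are the lowest.

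The Krüppel-like factors gave a pair of calls. Klf4, which slows the cell cycle and is also one of the reprogramming factors, stood at 8.87, 9.44 and 8.73 in CD26+, 9.49, 9.86 and 8.93 in Dlk1+Sca1-, 9.94, 10.11 and 10.08 in Dlk1+Sca1+, and 9.53 and 9.91 in Dlk1-Sca1+. It was tight in Dlk1+Sca1+ (SD 0.09, n = 3) and spread in Dlk1+Sca1- (SD 0.47, n = 3), and all Dlk1+Sca1+ arrays lay above all others fitted. CD26+ was lower than Dlk1+Sca1+ by a log2 difference of -1.03 ± 0.23 (adjusted p = 0.023), while Dlk1+Sca1+ against Dlk1+Sca1- gave 0.62 ± 0.23 (adjusted p = 0.28).

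Klf2, a factor best known from endothelium under flow and from quiescent lymphocytes, followed another order. It stood at 7.56, 7.72 and 7.74 in CD26+, 8.09, 8.22 and 8.69 in Dlk1+Sca1-, 8.58, 8.62 and 8.36 in Dlk1+Sca1+, and 7.75 and 7.68 in Dlk1-Sca1+. Both Dlk1+ populations were above CD26+ and Dlk1-Sca1+ on every array fitted, and the array left out, whose Dlk1 was high for its label, read 8.15. Dlk1+Sca1- replicate 3, the lowest array of its population for 29 members, had the highest Klf2. CD26+ differed from Dlk1+Sca1+ by -0.85 ± 0.17 (adjusted p = 0.011). The differences of CD26+ from Dlk1+Sca1- (-0.66 ± 0.17, adjusted p = 0.092) and of Dlk1+Sca1+ from Dlk1-Sca1+ (0.80 ± 0.19, adjusted p = 0.059) did not pass. Klf6 differed by at most 0.40.

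Nr4a1, an orphan nuclear receptor that acts without a known ligand, stood at 9.45, 9.94 and 9.22 in CD26+, 9.96, 10.27 and 9.55 in Dlk1+Sca1-, 10.34, 10.74 and 10.51 in Dlk1+Sca1+, and 9.59 and 10.12 in Dlk1-Sca1+. All Dlk1+Sca1+ arrays were above all others. CD26+ was 1.99-fold lower than Dlk1+Sca1+ (-0.99 ± 0.22, adjusted p = 0.023), and Dlk1+Sca1+ exceeded Dlk1+Sca1- by 0.60 ± 0.22 without passing (adjusted p = 0.28). Its relatives Nr4a2 and Nr4a3 differed by at most 0.34 and did not pass.

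Of the EGR zinc finger factors none was called. Egr1 read 11.17, 11.21 and 10.61 in CD26+, 11.09, 11.21 and 10.71 in Dlk1+Sca1-, 11.48, 11.53 and 11.76 in Dlk1+Sca1+, and 10.87 and 11.18 in Dlk1-Sca1+. The Dlk1+Sca1+ arrays lay above all others, and the largest difference, CD26+ against Dlk1+Sca1+, was -0.60 ± 0.17 (adjusted p = 0.084). Egr2 read 7.42, 7.91 and 7.21 in CD26+, 8.47, 8.33 and 6.71 in Dlk1+Sca1-, 8.30, 8.37 and 8.14 in Dlk1+Sca1+, and 7.26 and 7.96 in Dlk1-Sca1+. Dlk1+Sca1- held both the highest and the lowest array, and CD26+ against Dlk1+Sca1+ gave -0.76 ± 0.39 (adjusted p = 0.41). Egr3 went the other way from most members, with 5.66, 6.42 and 6.63 in CD26+, 6.99, 7.00 and 5.94 in Dlk1+Sca1-, 6.11, 6.36 and 6.04 in Dlk1+Sca1+, and 6.39 and 6.31 in Dlk1-Sca1+. Its difference of Dlk1+Sca1+ from Dlk1+Sca1- was -0.47 ± 0.30 (adjusted p = 0.60), and the populations overlapped.

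Zfp36 encodes tristetraprolin, which binds AU-rich elements and hastens the decay of mRNAs of cytokines and of early genes. It stood at 10.50, 10.96 and 10.05 in CD26+, 10.91, 11.50 and 10.78 in Dlk1+Sca1-, 11.18, 11.68 and 11.62 in Dlk1+Sca1+, and 10.83 and 11.18 in Dlk1-Sca1+. CD26+ and Dlk1+Sca1+ did not overlap, while Dlk1+Sca1- replicate 2 lay within the Dlk1+Sca1+ range. CD26+ was lower than Dlk1+Sca1+ with a difference of -0.99 ± 0.24 (adjusted p = 0.042). For this call the adjusted p was 0.053 with all 12 arrays and 0.088 after quantile normalisation, and the call was lost in 7 of the 11 fits without 1 array. Btg2, an antiproliferative gene whose product promotes deadenylation, read 10.09, 10.23 and 10.03 in CD26+, 10.28, 10.44 and 9.64 in Dlk1+Sca1-, 10.54, 10.62 and 10.74 in Dlk1+Sca1+, and 10.31 and 10.67 in Dlk1-Sca1+. CD26+ lay below both Sca1+ populations on every array fitted, with -0.52 ± 0.18 against Dlk1+Sca1+ (adjusted p = 0.16).

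Other members near the top of the list by size of difference did not pass in any comparison of the fit without a replicate block. Calls with such a block are given in the closing section. Ier2, a nuclear early response protein, read 7.76, 7.80 and 7.29 in CD26+, 7.46, 8.29 and 7.34 in Dlk1+Sca1-, 8.63, 8.65 and 8.28 in Dlk1+Sca1+, and 7.60 and 8.07 in Dlk1-Sca1+. Dlk1+Sca1+ lay above CD26+ and Dlk1-Sca1+ and met Dlk1+Sca1- only at its replicate 2, and CD26+ against Dlk1+Sca1+ gave -0.90 ± 0.25 (adjusted p = 0.065). Ier3, which modulates ERK signalling and survival, read 9.57, 9.87 and 9.54 in CD26+, 9.34, 10.09 and 9.24 in Dlk1+Sca1-, 10.23, 10.51 and 10.09 in Dlk1+Sca1+, and 8.97 and 10.06 in Dlk1-Sca1+. The pair of Dlk1-Sca1+ arrays were far apart, and Dlk1+Sca1+ against Dlk1-Sca1+ gave 0.76 ± 0.30 (adjusted p = 0.36). Csrnp1, a nuclear protein induced by axin in human cells, read 8.14, 8.38 and 7.96 in CD26+, 7.87, 8.63 and 7.74 in Dlk1+Sca1-, 8.60, 9.34 and 8.54 in Dlk1+Sca1+, and 8.05 and 8.62 in Dlk1-Sca1+. Dlk1+Sca1+ replicate 2 stood above every other array, and the difference from Dlk1+Sca1- was 0.74 ± 0.27 (adjusted p = 0.26).

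The feedback inhibitors showed no call in the fit without a replicate block. Trib1, a pseudokinase that directs COP1 ligase to its targets, read 7.39, 7.79 and 7.21 in CD26+, 6.74, 6.80 and 6.58 in Dlk1+Sca1-, 7.35, 8.23 and 7.20 in Dlk1+Sca1+, and 7.31 and 7.56 in Dlk1-Sca1+. Here Dlk1+Sca1- lay below all other arrays and the other populations overlapped, with 0.89 ± 0.25 for Dlk1+Sca1+ against Dlk1+Sca1- (adjusted p = 0.13). Socs3, the inhibitor of JAK and STAT signalling, read 7.06, 7.19 and 6.80 in CD26+, 7.54, 7.34 and 7.34 in Dlk1+Sca1-, 7.40, 7.48 and 7.41 in Dlk1+Sca1+, and 6.65 and 6.90 in Dlk1-Sca1+. Both Dlk1+ populations lay above CD26+ and Dlk1-Sca1+ on the arrays fitted, as with Klf2, but the array left out read 7.93, the highest of all, and Dlk1+Sca1+ against Dlk1-Sca1+ gave 0.65 ± 0.18 (adjusted p = 0.12). A dimmer probe set of Socs3 did not show this order, with 6.02, 5.94 and 6.33 in Dlk1+Sca1+ and 5.82, 6.38 and 6.10 in CD26+.

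Dusp1, the phosphatase that switches off p38 and JNK, was close to level, with 10.03, 10.09 and 9.67 in CD26+, 10.01, 10.12 and 9.05 in Dlk1+Sca1-, 10.08, 10.30 and 10.10 in Dlk1+Sca1+, and 9.92 and 10.08 in Dlk1-Sca1+. Apart from replicate 3 of CD26+ and of Dlk1+Sca1-, the arrays lay between 9.92 and 10.30, and Dlk1+Sca1+ against Dlk1+Sca1- gave 0.43 ± 0.23 (adjusted p = 0.52). Gadd45b, a stress sensor that activates p38 and JNK through MTK1, read 10.35, 10.49 and 9.81 in CD26+, 10.42, 10.58 and 9.16 in Dlk1+Sca1-, 10.48, 10.93 and 10.50 in Dlk1+Sca1+, and 10.50 and 10.55 in Dlk1-Sca1+. Dlk1+Sca1- replicate 3 lay more than 1 unit below the others of its population in Gadd45b, and Dlk1+Sca1+ against Dlk1+Sca1- gave 0.58 ± 0.32 (adjusted p = 0.55). The remaining 14 members had largest differences between 0.14 (Nfkbia, the NF-kB inhibitor, with -0.14 for CD26+ against Dlk1+Sca1+) and 0.42 (Gadd45g), and none passed.

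Genes around this response were counted in further lists, chosen by function. Of 28 symbols of kinases and factors upstream (old and current symbols of some genes both counted), 21 were measured and 1 was called. It was Rps6ka3, which encodes the ERK-activated kinase RSK2, at 0.94 ± 0.20 for CD26+ against Dlk1+Sca1+ (adjusted p = 0.021), beside 3.72% of all genes called. The ERK feedback genes split. Errfi1, an inhibitor of EGF receptors, was higher in Dlk1+Sca1+ (0.84 ± 0.18 against Dlk1+Sca1-, adjusted p = 0.048), whereas Dusp6, the ERK phosphatase, and Spred1, an inhibitor of Ras signalling, were lower there, with -0.75 ± 0.15 (adjusted p = 0.036) and -0.74 ± 0.17 (adjusted p = 0.050, just inside the threshold). Against CD26+, whose comparison shares the Dlk1+Sca1+ arrays, these were again the 3 of 15 genes called, in the same directions, with -1.02 ± 0.18 for Errfi1 in CD26+ minus Dlk1+Sca1+ (adjusted p = 0.0064). Of all genes, 1.24% were called against Dlk1+Sca1- and 3.72% against CD26+. Other than these, Dusp3 was called once, higher in CD26+ than in Dlk1+Sca1- (0.85 ± 0.18, adjusted p = 0.045), beside 1.1% of all genes called.

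Of the other early response genes, 49 of 55 symbols were measured. In Dlk1+Sca1+ against Dlk1+Sca1- 5 were called, all higher (0.649% of all genes), and 36 differences were positive (50% of all genes), with a median of 0.22 against 0.00. They were led by Ptgs2, the inducible cyclooxygenase (1.73 ± 0.34, adjusted p = 0.033), and the cytokines Il6 (1.50 ± 0.26, adjusted p = 0.012) and Cxcl2 (1.49 ± 0.24, adjusted p = 0.0093), and also held Hmox1 and Id3. Between CD26+ and Dlk1+Sca1+ 5 were lower in CD26+ (1.68% of all genes), Il6 the most (-2.94 ± 0.26, adjusted p = 3.0e-05), then Cxcl2 (-1.78 ± 0.24, adjusted p = 0.00097) and Ptgs2 (-1.40 ± 0.34, adjusted p = 0.043), with Hmox1 and Ccl2. Il6 was also lower in CD26+ than in Dlk1+Sca1- (-1.44 ± 0.26, adjusted p = 0.018), and Dlk1+Sca1+ exceeded Dlk1-Sca1+ in Il6 by 1.47 ± 0.29 (adjusted p = 0.027). Hmox1, Id3 and Ccl2 were named to complete these counts, after their values were seen.

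Of the heat shock and chaperone genes, which protect proteins from misfolding under heat and other stress, 17 of 20 were measured. In CD26+ against Dlk1+Sca1+ 3 were lower, Hsph1 (-0.75 ± 0.16, adjusted p = 0.021), Dnajb1 (-0.73 ± 0.16, adjusted p = 0.027) and Hspd1 (-0.42 ± 0.10, adjusted p = 0.044), and 2 of 17 differences were positive, beside 1.68% of all genes called lower and 49.1% positive. Hspb8, a small heat shock protein, differed by 1.18 ± 0.25 between Dlk1+Sca1+ and Dlk1+Sca1- (adjusted p = 0.041), higher in the former. Hspa1b, an inducible HSP70 with a near-identical copy whose signal the probes may share, gave -0.50 ± 0.09 for Dlk1-Sca1+ against Dlk1+Sca1- (adjusted p = 0.025). Hspa1b and Hsph1 were also called in Dlk1+Sca1+ against Dlk1-Sca1+, both higher (0.48 ± 0.09, adjusted p = 0.018, and 0.82 ± 0.18, adjusted p = 0.050, just inside the threshold).

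Leukocyte markers, taken as a sum, were highest in the same population as most members. The summed linear level of the 18 markers, all measured, was 690 to 723 in CD26+, 726 to 845 in Dlk1+Sca1-, 774 to 831 in Dlk1-Sca1+ and 1052 to 1231 in Dlk1+Sca1+, so that the population with the highest early genes also had the highest leukocyte signal. Of the 18, 4 were called higher in Dlk1+Sca1+ against Dlk1+Sca1-, 5 against CD26+ and 3 against Dlk1-Sca1+, beside 0.649%, 1.68% and 0.537% of all genes. Pf4, a macrophage chemokine in this setting, had a population mean of 6.40 in Dlk1+Sca1+ and between 3.80 and 4.12 elsewhere, and Mrc1, the mannose receptor of resident macrophages, 6.19 against 4.73 to 4.93. Ptprc was low throughout, at 3.35 in Dlk1+Sca1+ and 3.14 to 3.24 elsewhere, and Cd68 was highest in Dlk1-Sca1+ (8.06 against 7.70 in Dlk1+Sca1+). For Dlk1+Sca1+ minus Dlk1+Sca1-, 17 of the 18 differences were positive (median 0.46), beside 50% of all genes. For CD26+ minus Dlk1+Sca1+ 0 were positive (median -0.47), beside 49.1% of all genes. For Dlk1+Sca1+ minus Dlk1-Sca1+ 16 were positive (median 0.56), beside 51.9% of all genes. Array by array, the leukocyte sum was 710, 723 and 690 in CD26+ replicates 1 to 3 and 1052, 1231 and 1143 in Dlk1+Sca1+. In both populations this was the order of the members' median deviations. In Dlk1+Sca1- it was 726, 845 and 799, with replicate 2 highest in both measures but replicates 1 and 3 in opposite order. Within Dlk1-Sca1+ the sum did not follow the members. Replicates 1 and 2 had sums of 831 and 774, while the members deviated by -0.20 and 0.15. Mast cell markers, 4 in number, summed to 126, 77 and 223 in the Dlk1+Sca1+ arrays and to between 67 and 81 in the other arrays fitted, and Dlk1+Sca1+ replicate 2, with the highest early genes, had the 77. The endothelial sum was 322 to 359 in Dlk1+Sca1+, above CD26+ (256 to 315) and Dlk1-Sca1+ (281) and within the range of Dlk1+Sca1- (287 to 395). The pericyte sum was 743, 897 and 702 in Dlk1+Sca1+ replicates 1 to 3, above the 640 and 665 in Dlk1-Sca1+. It was 725, 872 and 618 in CD26+ and 874, 1139 and 732 in Dlk1+Sca1-, both overlapping Dlk1+Sca1+. Within populations, only Dlk1+Sca1+ replicates 1 and 3 departed from the order of the members' median deviations. Kcnj8 was called for CD26+ minus Dlk1+Sca1+ (-1.62 ± 0.37, adjusted p = 0.032). Abcc9 was called for Dlk1+Sca1+ minus Dlk1-Sca1+ (1.52 ± 0.34, adjusted p = 0.048). Mcam went the other way, with -0.98 ± 0.22 for Dlk1+Sca1+ minus Dlk1+Sca1- (adjusted p = 0.0499). Among the 8 endothelial genes Tek, the angiopoietin receptor, exceeded Dlk1+Sca1- in Dlk1+Sca1+ by 1.55 ± 0.25 (adjusted p = 0.0098). Tek averaged 6.73 in Dlk1+Sca1+, 6.05 in Dlk1-Sca1+, 5.18 in Dlk1+Sca1- and 4.62 in CD26+. The endothelial list as a whole was not shifted in this way. For Dlk1+Sca1+ minus Dlk1+Sca1-, 4 of the 8 differences were positive (median -0.02). For CD26+ minus Dlk1+Sca1+ 5 were positive (median 0.02), and for Dlk1+Sca1+ minus Dlk1-Sca1+ also 5 (median 0.06). The study describes a gate on the Pdgfra reporter, and how far it removed leukocytes, mast cells, pericytes and endothelium was not tested. The part of these cells in the differences of the early genes was not tested. In sorted bulk samples, fewer cells of a type and less RNA per cell cannot be told apart.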

How the data were processed

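The deposited values are log2 expression per probe set and array, made by the authors, with summarisation and normalisation not given in the sources used here. The submitters' processing notes name mm10. No further normalisation was applied. Of 41345 probe sets, the 23521 with a single gene symbol in the platform annotation were used, 1 per gene (that with the highest mean), leaving 22180 genes. One Dlk1-Sca1+ array was left out as described, so 11 arrays were fitted with limma 3.58.1 (R 4.3.3, statmod 1.5.0): lmFit with 1 mean per population, eBayes with trend and robust fitting, 7 residual degrees of freedom, two-sided, Benjamini-Hochberg adjustment over all genes within each comparison, threshold 0.05. The scripts were tested on simulated data. Values are given for called members and then those with the largest differences, up to 20 members, and for at most 3 called genes of a further list and comparison. Members and lists were chosen with earlier results of these data known. The study describes the replicates as different mice, and p-values measure the spread between arrays. The number of arrays limits the precision. Alternatives were all 12 arrays, other normalisations, filters, probe set rules, fits and tests, and single arrays left out.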

Additional observations from a re-analysis of the deposited data

How the results depend on the processing

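No direction of a member reversed where it was called. With all 12 arrays, and without trend or robust fitting, 0 members were called between Dlk1+Sca1+ and Dlk1-Sca1+, and without the 40% of genes with the lowest means there were 2. With only the populations compared, 8 were called between CD26+ and Dlk1+Sca1+. After quantile normalisation 1 was called between CD26+ and Dlk1+Sca1-. The methods' t-test at an unadjusted p of 0.05 gave 14 members for CD26+ against Dlk1+Sca1+ (13% of all genes), 4 for Dlk1+Sca1+ against Dlk1+Sca1- (8.55%) and against Dlk1-Sca1+ (8.22%), 4 for CD26+ against Dlk1+Sca1- (10.7%), 2 for Dlk1-Sca1+ against Dlk1+Sca1- (8.35%) and 0 for CD26+ against Dlk1-Sca1+ (5.91%), and 0 members in every comparison after Benjamini-Hochberg adjustment.

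Leaving out 1 array at a time gave 0 to 9 called members for CD26+ against Dlk1+Sca1+, 0 to 2 for Dlk1+Sca1+ against Dlk1-Sca1+ (0 without either array of Dlk1-Sca1+ or without Dlk1+Sca1+ replicate 2 or 3, and 2 without Dlk1+Sca1- replicate 3), 1 to 2 for Dlk1+Sca1+ against Dlk1+Sca1- (2 without Dlk1+Sca1- replicate 2), 0 in the others and 1 to 5 by the F test (1 without CD26+ replicate 1 or 3, Dlk1-Sca1+ replicate 2 or Dlk1+Sca1+ replicate 1 or 2, and 4 or 5 without CD26+ replicate 2 or Dlk1+Sca1- replicate 2 or 3). The calls of Junb, Klf4 and Nr4a1 were lost without CD26+ replicate 1 (adjusted p 0.079, 0.11 and 0.10) and also without the third CD26+ array or the second or the third Dlk1+Sca1+ array, and that of Klf2 without CD26+ replicate 1 (0.063). The Klf4 call was lost without Dlk1+Sca1+ replicate 1 as well (0.056). The count of members highest in Dlk1+Sca1+ was 28 after quantile normalisation (26.2% of all genes). In settings chosen after seeing the data, it was 24 without the replicate 2 arrays (24%) and 22 also without Dlk1+Sca1- replicate 3 (24.8%).

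The labels number replicates alike in each population. Deviations from population means correlated between arrays of the same number at -0.04 to 0.14 over all genes (median 0.03), 2 of 18 pairs passing 0.1. Between arrays of different number they ran from -0.14 to 0.07 (median -0.02), with 0 of 36 passing. The numbers were not taken to pair arrays, although 8 of 12 arrays correlated best with their own number. Over the members the correlations between arrays of the same number ran from -0.13 to 0.49 (median 0.11), 10 of 18 passing 0.1, against 6 of 36 between arrays of different number (median -0.06). With a replicate block 10 members were called by the F test, for which the share of all genes was not counted in this fit. Whether the members gained more calls than all genes did by this test is therefore not known. In the pairwise tests of this fit the called members were 8 for CD26+ against Dlk1+Sca1+ (944 of all genes), 5 for Dlk1+Sca1+ against Dlk1+Sca1- (337) and 4 for Dlk1+Sca1+ against Dlk1-Sca1+ (244). Added were Ier2, Csrnp1 and Fosb in the first (adjusted p 0.013, 0.024 and 0.011), Nr4a1, Ier2, Trib1 and Csrnp1 in the second (0.046, 0.045, 0.040 and 0.029) and Nr4a1, Ier3 and Fosb in the last (0.028, 0.049 and 0.040).

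The background counts of all genes called also moved. They were 19 for CD26+ against Dlk1-Sca1+ (29 with 12 arrays), 243 for CD26+ against Dlk1+Sca1- (137 with 12 arrays, 109 with only the populations compared), 131 for Dlk1-Sca1+ against Dlk1+Sca1- (26 with only those), 263 for Dlk1+Sca1+ against Dlk1-Sca1+ (88 with 12 arrays) and 274 for Dlk1+Sca1+ against Dlk1+Sca1- (118 with only those). Without 1 array they ran from 8 to 25, 61 to 265, 20 to 175, 83 to 351 and 99 to 355, and for CD26+ against Dlk1+Sca1+ from 426 to 967, beside 826, the lowest without CD26+ replicate 1.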
